A study of Mus musculus with 223 samples.

Results

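The genes described here were 9 members of the HMG and SoxC families, Hmgb1, Hmgb2, Hmgb3, Hmgn1, Hmgn2, Hmga1, Sox4, Sox11 and Sox12, out of the 43629 genes in the count table. They were listed by symbol and chosen by measured values of these same cells, namely their pooled level in RPM, the proportion of cells exceeding 10 RPM and the difference between ages, so all values below are descriptions and no test was made of them. RPM (reads per 1000000 mapped) is pooled by summing a gene's read pairs over the cells of a group and dividing by their summed mapped read pairs. The list was named for immaturity. At P5, 6 of the 9 were at least 2-fold lower than at E18 in type 3 (as were 45.5% of all genes tested there), or 4 on each of 3 other scales, and Hmgb2 was the only one lower by that much in each of the 3 types, so they are called by their families, the HMG and SoxC genes.

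Single Htr3a-GFP+ interneurons (INs) were sequenced from the whole cortex of Htr3a-GFP transgenic mice of both sexes on a C57BL/6 background, in which enhanced GFP is driven by Htr3a regulatory sequences and labels INs derived mostly from the caudal ganglionic eminence (CGE). There were 82 cells at embryonic day 18 (E18), 66 at postnatal day 2 (P2) and 75 at P5, each age from 4 to 5 pooled embryos or pups, and no label names the animal a cell came from, so each age was 1 sample without replicates. The cells of P2 and P5 carry the authors' assignment to type 1 (22 and 34 cells), type 2 (31 and 19 cells) or type 3 (13 and 22 cells), drawn from these same counts, whereas E18 cells carry none. In the study's naming, type 1 is enriched in Meis2 and type 3 in Nr2f2. E18 and P2 cortices were dissociated in warm Pronase and P5 cortices in Pronase at room temperature, so age and dissociation cannot be told apart where P5 is compared with E18 or P2. The cell names carry a number after the slash, called a library set here because its meaning is not stated: E18 and P5 cells share sets 383, 392 and 393 (48, 9 and 25 cells at E18, and 15, 17 and 43 at P5), whereas all P2 cells are in set 353 and P2 cannot be told apart from that set. The methods name more than 1 capture chip at E18 and at P5 and 1 at P2, and how chips relate to the sets is not stated.

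High mobility group (HMG) proteins are abundant non-histone chromatin proteins. HMGB proteins bend DNA through HMG boxes, HMGN proteins bind the nucleosome core and keep chromatin accessible, and HMGA proteins bind AT-rich DNA. Hmgb2 is a known gene of dividing and newborn cells. The SoxC genes Sox4, Sox11 and Sox12 encode transcription factors from single-exon genes, and Sox4 and Sox11 are known for turning on neuronal genes such as Tubb3 in newly born neurons.

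The sequences upstream of Hmgb2, Sox4 and Sox11 are shown because these genes took different courses after E18: Hmgb2 was lower in every type at P5, Sox4 was higher in type 1, and Sox11 was lower in type 3. Each line holds the 250 bases before the RefSeq start site (GRCm38.p6), in the gene's direction, with CCAAT and GGGCGG on either strand in capitals (their reverse complements read ATTGG and CCGCCC). The windows are chr8:57511593-57511842 on the plus strand for Hmgb2, chr13:28953700-28953949 on the minus strand for Sox4 and chr12:27342719-27342968 on the minus strand for Sox11.
Hmgb2: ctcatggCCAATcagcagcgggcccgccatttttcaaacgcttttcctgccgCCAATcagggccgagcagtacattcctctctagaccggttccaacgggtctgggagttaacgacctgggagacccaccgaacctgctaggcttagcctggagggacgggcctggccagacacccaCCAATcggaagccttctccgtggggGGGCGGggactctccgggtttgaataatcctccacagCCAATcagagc
Sox4: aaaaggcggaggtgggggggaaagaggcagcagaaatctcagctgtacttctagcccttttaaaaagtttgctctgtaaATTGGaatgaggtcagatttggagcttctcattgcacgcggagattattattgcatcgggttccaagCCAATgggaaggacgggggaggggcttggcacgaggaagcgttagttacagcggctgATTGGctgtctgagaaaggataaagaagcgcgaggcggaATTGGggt
Sox11: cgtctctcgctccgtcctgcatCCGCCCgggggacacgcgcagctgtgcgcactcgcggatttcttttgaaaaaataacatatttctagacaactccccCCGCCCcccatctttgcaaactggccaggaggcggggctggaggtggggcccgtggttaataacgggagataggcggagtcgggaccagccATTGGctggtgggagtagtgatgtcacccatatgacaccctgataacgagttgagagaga

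These windows hold 4 matches to CCAAT and 1 to GGGCGG for Hmgb2, 4 and 0 for Sox4, and 1 and 2 for Sox11. Over windows of 300 bases (250 before and 50 after the start), RefSeq lists 11 for the 9 genes. CCAAT was in 8 of these 11 and GGGCGG in 9, against 37.4% and 35.7% of all 32851 windows. The 2 windows of Hmga1 overlap and both hold GGGCGG, and counted by gene each motif was in 8 of 9. These windows were 52% to 77% GC, and GC content was not matched in the comparison with all windows. TATAAA was in 0 of 11 (13.6% of all windows) and TTTGAA in 3 (17.9%), on either strand and with no overlap possible between TATAAA and GGGCGG. A match describes letters in the window and is not a binding site.

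Depth was 3707601 to 15840130 mapped read pairs per cell (median 9463033), of which 1596087 to 11692823 were counted on genes. The median share of mapped pairs on genes was 58.6% at E18, 55.2% in P5 type 1, 55.5% in P5 type 2 and 32.1% in P5 type 3. The median log2 change from E18 of genes passing the filter (25% or more of the cells of either group exceeding 10 RPM) was -0.81 in P5 type 3, against -0.13 in type 1 and 0.00 in type 2. Other measures differed in type 3 too: the median count on genes per cell was 2620270 in P5 type 3 against 5614670 at E18, and the median mitochondrial share of counts was 2.51% against 1.11%. Gad1 or Gad2, which make GABA, was above 10 RPM in 77 of 82 E18 cells, 33 of 34 P5 type 1 cells, and all 19 and 22 cells of P5 types 2 and 3. Markers of other sources moved with age. At least 3 of 8 genes of INs from the medial ganglionic eminence (MGE), led by Sst and Lhx6, were above 10 RPM in 41 E18 cells and in 0 P5 cells of any type, with a summed pooled level of 910 RPM at E18 and 109, 74 and 44.2 RPM in P5 types 1, 2 and 3. Within that list Lhx8 had no count in any group. Npy, also on it, is named by the paper among markers of CGE-derived INs. It was at 46.2 RPM at E18 and at 38.1, 26.1 and 30.4 RPM in P5 types 1 to 3, which is part of the sums above. Among 9 genes of excitatory neurons, at least 3 were above 10 RPM in 13 E18 cells and in 0 cells at P5, and among 13 astrocyte or radial glia genes in 1 E18 cell and in 5, 5 and 2 P5 cells of types 1 to 3 (summed pooled level 140 RPM at E18, and 417, 2210.0 and 351 RPM). The defining globin genes of red cells were at 0 in every group. The intervals below are exact 95% Poisson intervals for pooled RPM and exact (Clopper-Pearson) 95% binomial intervals for shares, and they cover counting error only, since read pairs without molecular identifiers include PCR copies.

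Hmgb2 (ENSMUSG00000054717, chr8:57511907-57515999, plus strand, GRCm38), the HMGB gene of dividing and newborn cells, was lower at P5 than at E18 in all 3 types. At E18 its cells ranged from 0 to 848 RPM with a median of 45.8, the pooled level was 96.4 RPM (95.7 to 97.0), and 50 of 82 cells were above 10 RPM (61%, 49.6 to 71.6%). In P5 type 1 INs the range was 0 to 156 RPM with a median of 0.171, the pooled level was 16.3 RPM (15.9 to 16.7), and 8 of 34 cells were above 10 RPM (23.5%, 10.7 to 41.2%). P5 type 2 INs reached 65.5 RPM with a median of 0 and a pooled level of 5.92 RPM (5.57 to 6.28), with 3 of 19 cells above 10 RPM (15.8%, 3.38 to 39.6%). Most P5 cells thus held little or no Hmgb2 while a few reached levels common at E18, so that the ranges overlapped. P5 type 3 INs had a pooled level of 2.20 RPM (1.98 to 2.43) that came almost wholly from 1 cell at 38.2 RPM, the next being at 1.02, and the level without it was 0.0488 RPM. Without the highest cell the pooled level was 12.3 RPM in type 1 and 2.47 in type 2, against 87.6 at E18.

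The log2 change of Hmgb2 from E18 was -2.49 in type 1, -3.81 in type 2 and -4.93 in type 3, on a scale with 1 RPM added to both levels. Inside library set 393, which holds 25 E18 and 43 P5 cells, the changes were -4.73, -3.30 and -4.45, the type 1 level there being 2.09 RPM, or 0.519 without 1 cell. In set 383 the type 1 level was 31.4 RPM with 5 of 11 cells above 10 RPM, a change of -1.57, and in set 392 it was 16.7 RPM (3.91 without 1 cell), a change of -3.08. The share of cells moved the same way after each cell was thinned to 1500000 counts, with 50 of 82 cells above 10 RPM at E18 and 7 of 34, 3 of 19 and 1 of 22 in the P5 types. P2 lay between the ages in types 1 and 2, at 56.8 and 30.1 pooled RPM with 12 of 22 and 12 of 31 cells above 10 RPM. P2 type 3 stood at 46.5 RPM through 1 cell at 504 RPM and at 0.251 RPM without it. In 23 E18 cells at least 3 of 26 cycle genes were above 10 RPM, and their pooled Hmgb2 was 147 RPM against 75 RPM in the other 59 cells. Above 10 RPM were 15 of the 23 and 35 of the 59. The same criterion took 11 of 34, 3 of 19 and 5 of 22 P5 cells. These cells are not called cycling, since Mki67, a defining gene of cycling cells, was above 10 RPM in only 4 E18 cells and in 4, 1 and 0 P5 cells of types 1 to 3, whereas Birc5 was in 42 E18 cells and in 22, 8 and 17 P5 cells. Without the cells that met the criterion the changes of Hmgb2 were -2.39, -3.33 and -4.27.

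**Figure D1:**
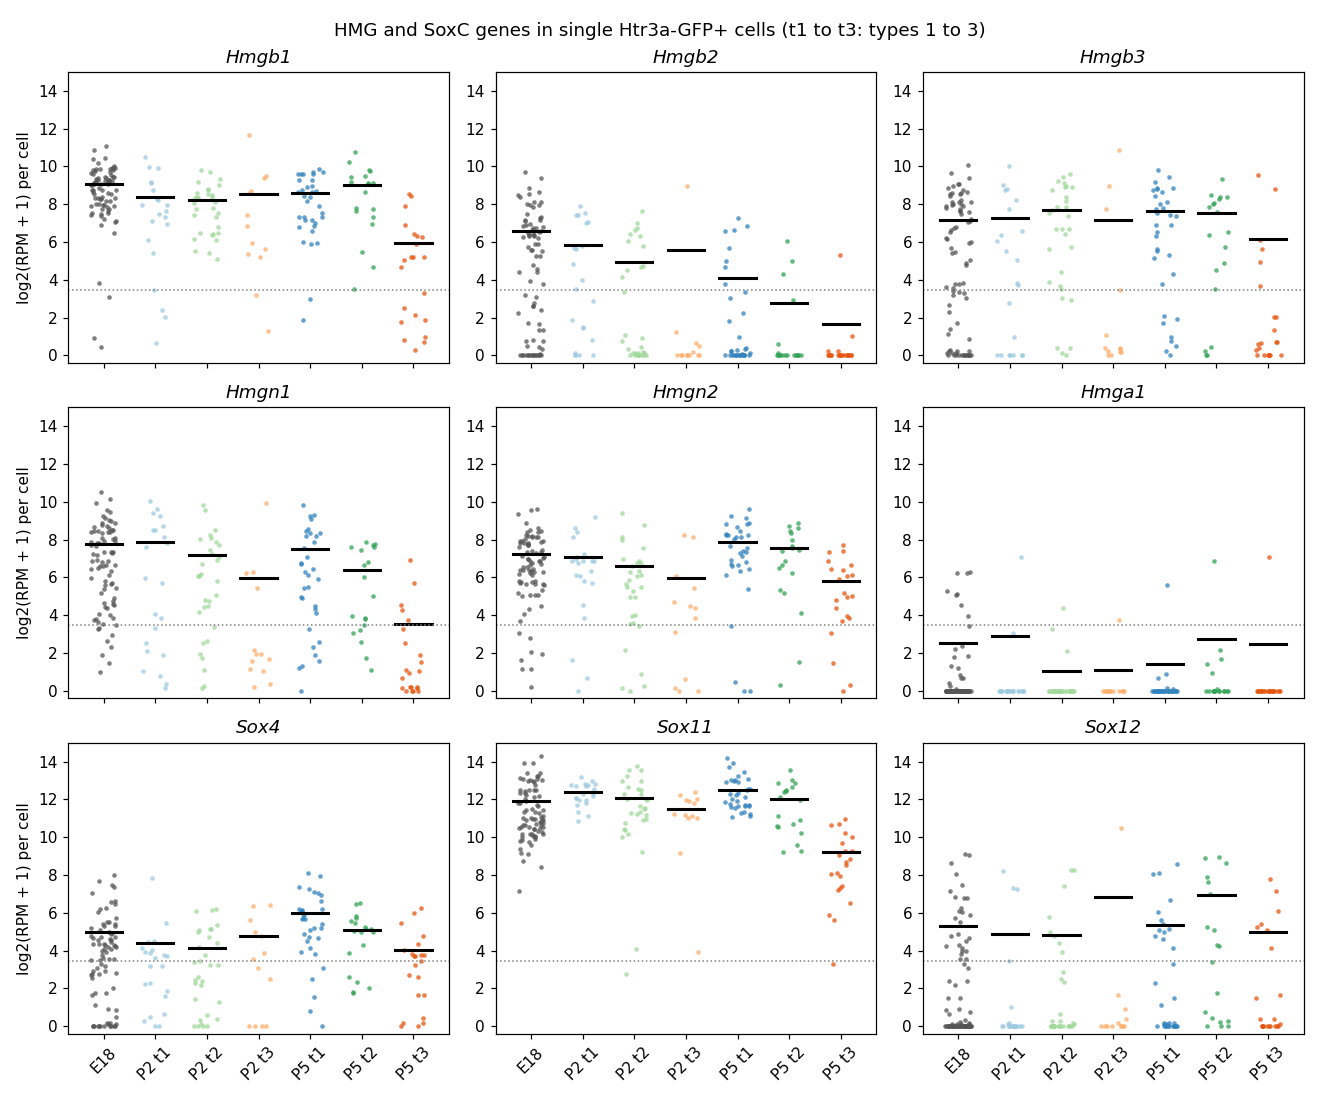
Level of each of the 9 genes in single cells, as log2(RPM + 1), at E18 and in types 1 to 3 (t1 to t3) at P2 and P5. Each point is 1 cell, the black bar is the pooled level of the group and the dotted line is 10 RPM. Hmgb2 points drop to the axis in most P5 cells, and the Sox11 points of P5 type 3 (8.82 to 2028 RPM) lie below all those of P5 type 1 (2110 to 18469 RPM).

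Hmgb1 (ENSMUSG00000066551, chr5:149046702-149184489, minus strand), the most widely used member of its family, was detected in nearly every cell and was low in P5 type 3 among the P5 types. E18 cells ranged from 0.341 to 2126 RPM with a median of 490.5 and a pooled level of 539 RPM (538 to 541), and 79 of 82 were above 10 RPM. The pooled level was 388 RPM (386 to 390.2) in P5 type 1, where 32 of 34 cells were above 10 RPM, and 512 RPM (508 to 515) in P5 type 2, where all 19 were. P5 type 3 cells ranged from 0.204 to 371 RPM with a median of 33.8, a pooled level of 60.7 RPM (59.5 to 61.9) and 13 of 22 above 10 RPM. The E18 and P5 type 3 ranges overlapped, but every P5 type 3 cell was below the E18 median. From E18, the log2 change was -0.47 in type 1, -0.08 in type 2 and -3.13 in type 3, or -0.95, -0.12 and -3.35 inside set 393. In P5 type 3 the 17 cells of set 393 had 55.6 RPM, 3 cells of set 392 had 135 RPM and 2 cells of set 383 had 1.87 RPM. Exons of Hmgb1 overlap those of Mm2pr on the same strand and Uspl1 on the opposite one, and 12 near copies of Hmgb1 held counts equal to 1.61% of its own. The strand setting of the counting is not stated, so reads shared with these genes could not be told apart.

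Hmgb3 (ENSMUSG00000015217, chrX:71555918-71560676, plus strand), a relative known from stem and progenitor cells, was not lower in types 1 and 2 over all library sets. Its pooled level was 142 RPM at E18, where cells ranged from 0 to 1074 RPM around a median of 46.8 and 51 of 82 were above 10 RPM. It was 198 RPM in P5 type 1 (0 to 906 RPM, median 117, 26 of 34 cells) and 182 RPM in P5 type 2 (0 to 635 RPM, median 91.0, 15 of 19 cells). P5 type 3 had 69.6 RPM, a median of 0.584 and 6 of 22 cells above 10 RPM, and without its highest cell (734 RPM) the level was 29.9 RPM. The log2 changes were 0.48, 0.35 and -1.02, and relative to the median of all genes the last of these was -0.21. Inside set 393 they were -0.03, -0.23 and -0.88. The type 3 level there was 84.6 RPM, or 35.1 RPM without the cell at 734 RPM, with a median of 0.636, against 157 RPM and a median of 104 at E18.

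The HMGN genes, whose products loosen chromatin, separated from one another at P5 over all library sets. Hmgn1 (ENSMUSG00000040681, chr16:96120618-96127729, minus strand) was at 215 RPM at E18 (1.01 to 1454 RPM, median 116), with 74 of 82 cells above 10 RPM. It was at 179 RPM in P5 type 1 (0 to 914 RPM, median 73, 26 of 34 cells), 83.7 RPM in P5 type 2 (1.15 to 233 RPM, median 31.8, 14 of 19 cells) and 10.6 RPM in P5 type 3 (0 to 122 RPM, median 1.02, 5 of 22 cells). Hmgn1 thus ran down from type 1 to type 3 at P5, with overlapping ranges, and 1 type 3 cell carried 54.4% of that group's counts, the level without it being 5.08 RPM. Its log2 changes from E18 were -0.26, -1.35 and -4.22 in types 1 to 3, and -0.63, -1.59 and -4.02 inside set 393. Hmgn2 (ENSMUSG00000003038, chr4:133964738-133968650, minus strand) was at 153 RPM at E18 (0.149 to 774 RPM, median 107), again with 74 of 82 cells above 10 RPM. Unlike Hmgn1 it stood at 234 RPM in P5 type 1 (0 to 781 RPM, median 176, 30 of 34 cells) and 188 RPM in P5 type 2 (0.231 to 470.1 RPM, median 165, 17 of 19 cells), and at 55.5 RPM in P5 type 3 (0 to 212 RPM, median 33.2). Most P5 type 3 cells kept Hmgn2 at a lower level, 18 of 22 being above 10 RPM. The log2 changes of Hmgn2 were 0.61, 0.30 and -1.44, and inside set 393 they were 1.05, 0.36 and -1.60, but in set 392 the type 1 change was -0.39. In set 383 the 2 P5 type 3 cells were at 186 RPM against 152 RPM at E18. At P2 the log2 changes from E18 in types 1 to 3 were 0.12, -0.58 and -1.79 for Hmgn1 and -0.17, -0.64 and -1.28 for Hmgn2.

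E18 cells with at least 3 MGE genes had less Hmgn2, at 95.2 RPM pooled over 41 cells against 211 RPM in the other 41. The difference had the same direction in sets 383 (97.5 and 219 RPM), 392 (81.5 and 357 RPM) and 393 (93.4 and 140 RPM). Hmgb2 differed likewise, at 68.4 and 125 RPM over all sets, but not in set 393, where it was 93.7 and 69.5 RPM. When these cells were left out, a choice made after seeing the data, the change of Hmgn2 in type 1 was 0.15 and the changes of Hmgb2 were -2.86, -4.18 and -5.30.

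Hmga1 (ENSMUSG00000046711, chr17:27556497-27563674, plus strand), an AT-hook protein gene of proliferating cells, was near the detection limit and did not pass the filter in any comparison of ages or types. At E18 it was above 10 RPM in 8 of 82 cells (9.76%, 4.31 to 18.3%), with a highest cell at 77.4 RPM and a pooled level of 4.68 RPM (4.53 to 4.83). In each of the 3 types at P2 and at P5, 1 cell exceeded 10 RPM, and the pooled levels of 1.70, 5.82 and 4.50 RPM in P5 types 1 to 3 were 0.0509, 0.455 and 0 RPM without that cell. Its exons overlap AI413582 and Gm49774 on the opposite strand, and its near copy Hmga1b held counts equal to 6.32% of its own, so these few counts are also uncertain in origin.

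Sox11 (ENSMUSG00000063632, chr12:27334264-27342574, minus strand, 1 exon of 8311 bases) was high in every group except P5 type 3. E18 cells ranged from 143 to 19728 RPM around a median of 2050 with a pooled level of 3794 RPM (3790 to 3798), and all 82 were above 10 RPM. P5 type 1 INs ranged from 2110 to 18469 RPM (median 4634, pooled 5855 RPM, 5847 to 5863) and P5 type 2 INs from 601 to 12150 RPM (median 4045, pooled 4166 RPM). P5 type 3 INs ranged from 8.82 to 2028 RPM (median 393) with a pooled level of 603 RPM (599 to 607), although 21 of 22 cells still exceeded 10 RPM. Every P5 type 1 cell was thus above every P5 type 3 cell, while type 2 overlapped with both. The pooled levels, from high to low, were P5 type 1, P2 type 1 (5269 RPM), P2 type 2 (4323), P5 type 2, E18, P2 type 3 (2920 RPM) and P5 type 3, and the ranges of cells overlapped between all neighbours in that order. Per kilobase of exon, Sox11 stood at 457 RPM at E18, against 107 for Hmgb1, 8.64 for Sox12 and 6.32 for Sox4, and it remained the highest of the 9 genes in P5 type 3 at 72.6 RPM per kilobase.

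Sox11 differed between library sets within E18 by more than it differed between most ages. At E18 the pooled level was 5230 RPM over the 48 cells of set 383 (median 4533), 1666 RPM over the 9 cells of set 392 (median 1459) and 1684 RPM over the 25 cells of set 393 (median 1391), a log2 difference of 1.63 between sets 383 and 393. In P5 type 1 the same sets had 7320, 4598 and 5686 RPM, and the 17 type 3 cells of set 393 had 557 RPM. The log2 change from E18 was therefore 0.63, 0.13 and -2.65 in types 1 to 3 over all sets, and 1.75, 1.34 and -1.59 inside set 393. Among the 4340 genes passing the filter between these E18 sets, 12.0% were at least 2-fold higher and 13.0% at least 2-fold lower in set 383. Of the 9 genes, Sox11 and Sox12 (1.28) were higher and 0 were lower. In set 383 the E18 cells with at least 3 MGE genes had more Sox11 than the others (6134 and 4140 RPM). They had less in set 392 (844 and 2100 RPM, over 3 and 6 cells) and in set 393 (1411 and 1929 RPM). What set 383 and set 393 differ in is not stated, and its part in the level of Sox11 was not tested.

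**Figure D2:**
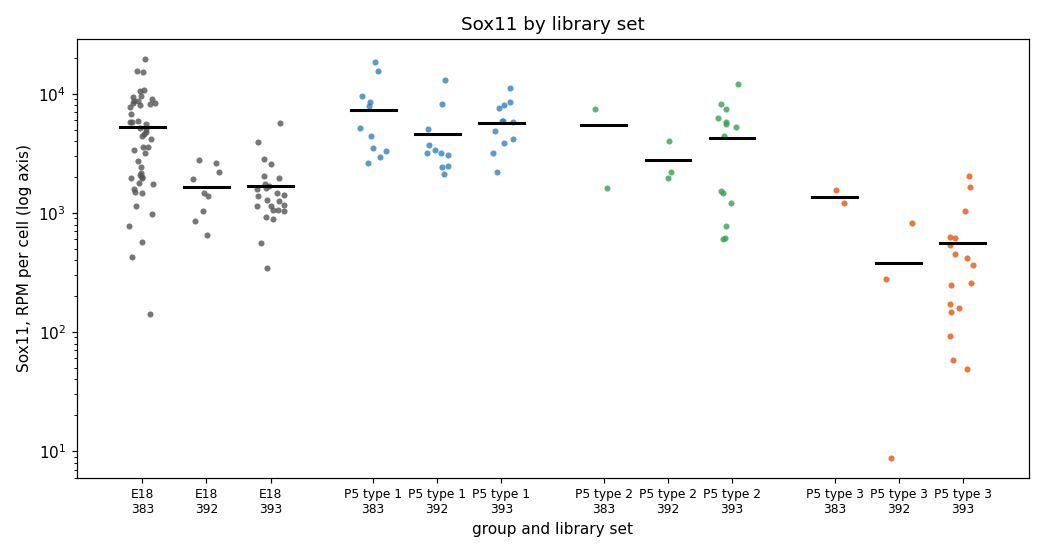
Sox11 in single cells (RPM, log axis) at E18 and in the P5 types, split by library set. Points are cells and bars are pooled levels. The E18 cells of set 383 pool at 5230 RPM and those of sets 392 and 393 at 1666 and 1684 RPM, while P5 type 3 stays below P5 type 1 in each set.

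Sox4 (ENSMUSG00000076431, chr13:28948919-28953713, minus strand, 1 exon), a factor of differentiating neurons, was higher in P5 type 1 than at E18. Cells ranged from 0 to 256 RPM at E18 (median 15.4, pooled 30.3 RPM, 29.9 to 30.7), and 49 of 82 were above 10 RPM (59.8%, 48.3 to 70.4%). P5 type 1 INs ranged from 0 to 277 RPM (median 49.9, pooled 63.3 RPM, 62.5 to 64.2), with 29 of 34 cells above 10 RPM (85.3%, 68.9 to 95%). P5 type 2 INs (2.38 to 91.3 RPM, median 32.3) pooled at 33.7 RPM and P5 type 3 INs (0 to 75.1 RPM, median 10.9) at 15.3 RPM, with 14 of 19 and 11 of 22 cells above 10 RPM. All these ranges overlapped. The log2 changes were 1.04, 0.15 and -0.94, so Sox4 lay just inside the 2-fold limit in type 1 and just outside it in type 3, where Hmgb3 at -1.02 lay just inside. Inside set 393 the changes were 1.19, -0.04 and -0.69, and in set 392, where 9 E18 cells pooled at 71.3 RPM and 11 P5 type 1 cells at 64 RPM, the type 1 change was -0.15. There 1 E18 cell held 53.3% of the counts, and the E18 level without it was 39.1 RPM. The P5 type 1 level of 64 RPM still includes its own highest cell, at 277 RPM, so these 2 levels are not alike. The medians were 23 RPM at E18 and 36.2 RPM in P5 type 1. Without the cells holding at least 3 MGE genes the type 1 change over all sets was 0.84. Gm26735 overlaps the Sox4 exon on the opposite strand.

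Sox12 (ENSMUSG00000051817, chr2:152393611-152398063, minus strand, 1 exon), the SoxC member known as the weakest activator, was above 10 RPM in a minority of cells in all groups but P5 type 2, although 1 or more read pairs were found in 45 of 82 E18 cells and 22 of 34 P5 type 1 cells. It was above 10 RPM in 27 of 82 E18 cells (0 to 545 RPM, median 0.114, pooled 38.5 RPM) and in 13 of 34 P5 type 1 cells (0 to 379 RPM, median 0.663, pooled 39.8 RPM). In P5 type 2, 10 of 19 cells were above 10 RPM (52.6%, 28.9 to 75.6%), the range was 0 to 502 RPM with a median of 17.8, and the pooled level was 123 RPM (122 to 125), or 87.9 RPM without the highest cell. P5 type 3 had 30.1 RPM with 7 of 22 cells above 10 RPM, and 17 RPM without its highest cell. The log2 change from E18 in type 2 was 1.66, and 2.39 inside set 393. It came from 14 cells of set 393 at 114 RPM and 2 cells of set 383 at 339 RPM, whereas 3 cells of set 392 had 0.348 RPM. Among the type 2 cells, 7 had Meis2 above 10 RPM and pooled at 51.8 RPM of Sox12, against 165 RPM in the other 12, but the medians were 17.8 and 21.5 RPM, and 4 of 7 and 6 of 12 cells were above 10 RPM. For Sox11 these levels were 3683 and 4443 RPM, with overlapping ranges in both genes.

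**Figure D3:**
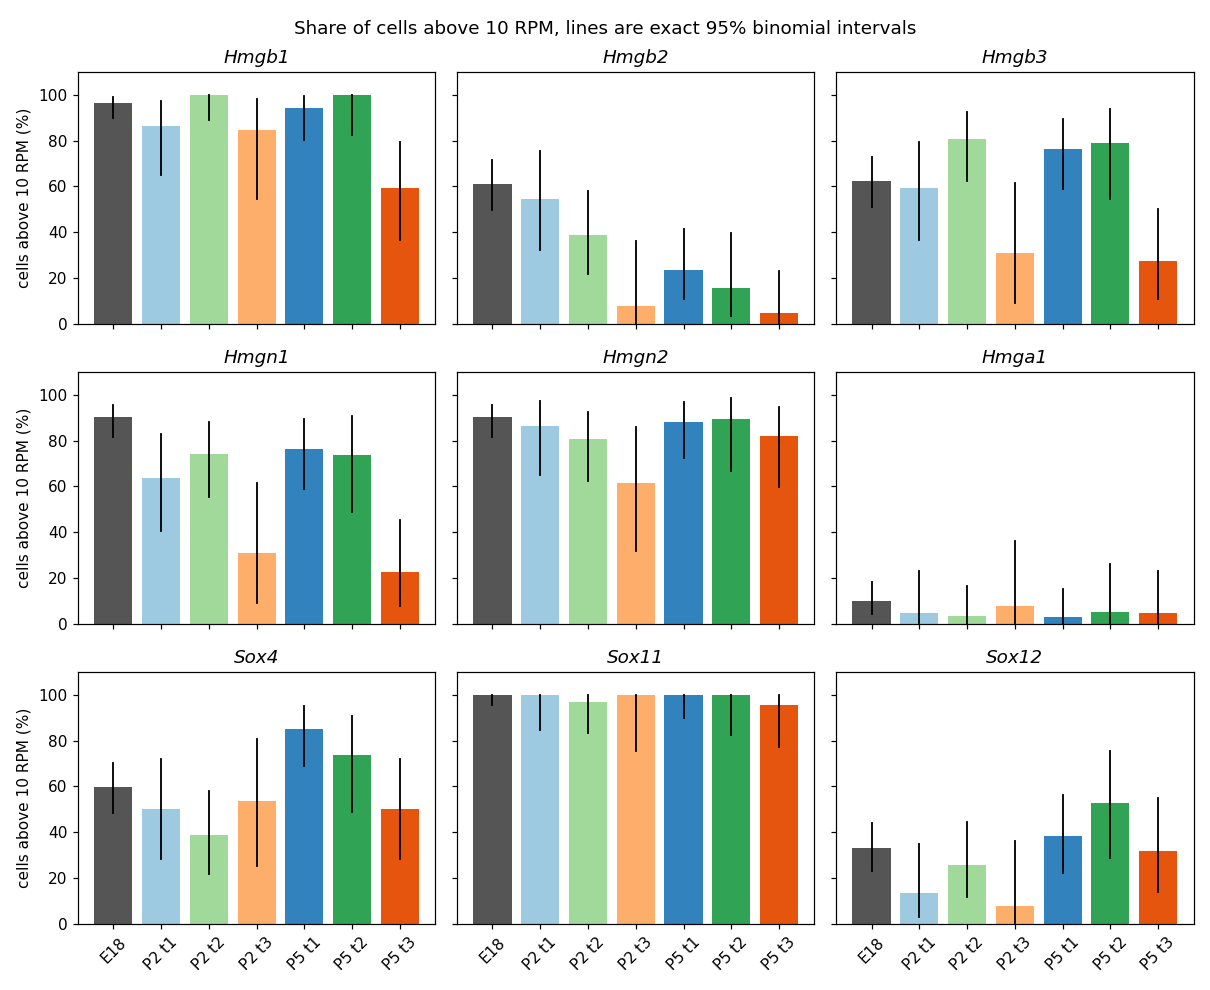
Share of cells above 10 RPM for each of the 9 genes at E18 and in types 1 to 3 (t1 to t3) at P2 and P5, with exact 95% binomial intervals. The share for Hmgb2 is 61% at E18 and 23.5%, 15.8% and 4.55% in the P5 types, whereas Sox11 stays at 95.5% or more in every group.

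Counted over the 9 genes, P5 type 1 had 2 at least 2-fold lower than at E18, Hmgb2 and Hmga1, where 17.8% of the 3961 genes passing the filter were, and 1 at least 2-fold higher, Sox4, where 10.2% were. P5 type 2 had 2 lower, Hmgb2 and Hmgn1 (15.7% of 4791 genes), and 1 higher, Sox12 (16.2%). P5 type 3 had 6 lower, Hmgb1, Hmgb2, Hmgb3, Hmgn1, Hmgn2 and Sox11 (45.5% of 4222 genes), and 0 higher (11.3%). Of the 9 genes, 8 passed the filter in each of these comparisons, and Hmga1 did not. Since the genes were chosen with these contrasts in view, nothing is read from the counts against the background. Inside set 393 the lower genes were again Hmgb2 and Hmga1 in type 1 (30% of genes) and Hmgb2 and Hmgn1 in type 2 (22.4%), and in type 3 they were Hmgb1, Hmgb2, Hmgn1, Hmgn2, Hmga1 and Sox11 (50.8%). The higher ones there were Hmgn2, Sox4, Sox11 and Sox12 in type 1 (18.4%), Sox11 and Sox12 in type 2 (18.8%) and 0 in type 3 (12.7%). With the P5 types combined, Hmgb2 alone was at least 2-fold lower over all sets (14.4%), whereas inside set 393 Hmgb2 and Hmgn1 were lower (27.1%) and Sox11 and Sox12 higher (10.3%).

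The size of the changes in type 3 depended on the scale. Dividing by counts on genes in place of mapped read pairs brought the median of all genes from -0.81 to -0.03, and TMM factors and DESeq2 size factors brought it to -0.24 and -0.16. The share of calls that were lower went from 80.2% to 54.3%, 61.4% and 59%. In type 1 these shares were 63.4%, 56.8%, 45.7% and 39.1%, and in type 2 they were 49.2%, 51.5%, 39.6% and 31.2%. Taken relative to the median of all genes, the changes in type 3 were -4.12 for Hmgb2, -3.41 for Hmgn1, -2.32 for Hmgb1 and -1.84 for Sox11, but -0.64 for Hmgn2, -0.21 for Hmgb3 and -0.14 for Sox4, and 0.46 for Sox12. Inside set 393 the median of all genes in type 3 was -1.05, beside -1.59 for Sox11 and -1.60 for Hmgn2. On each of the other 3 scales 4 of the 9 genes were at least 2-fold lower in type 3. Relative to the median, Hmgb2 changed by -2.36 in type 1 and -3.82 in type 2, and Sox4 by 1.17 in type 1.

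**Figure D4:**
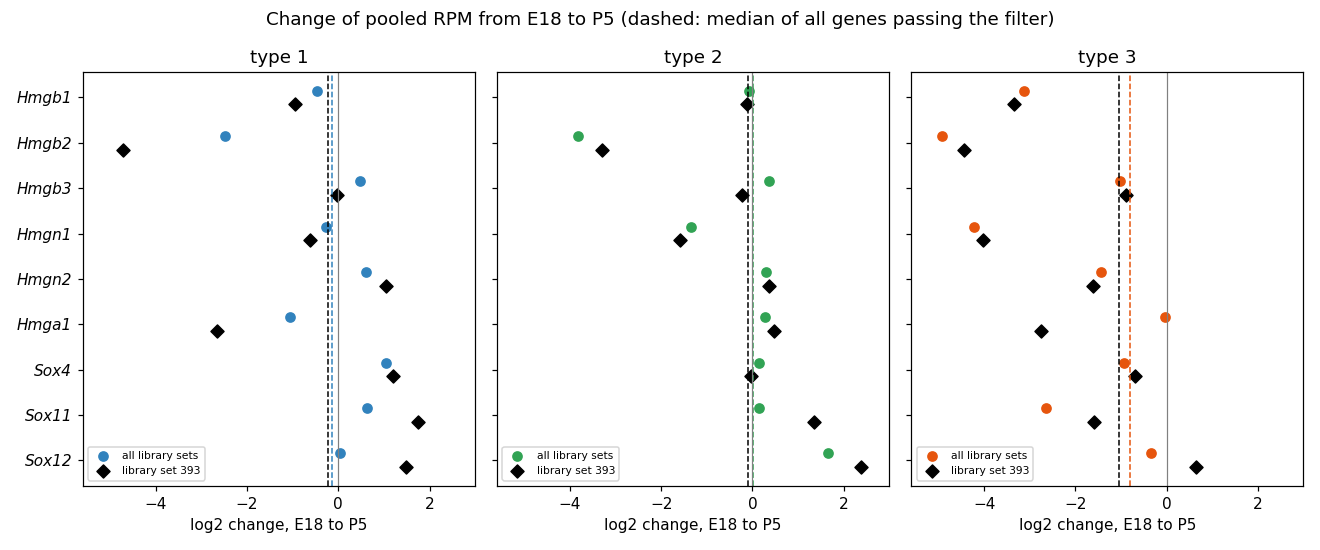
Log2 change of pooled RPM from E18 to P5 (1 RPM added to both levels) for each of the 9 genes in types 1, 2 and 3, over all library sets (circles) and inside set 393 (diamonds). Dashed lines mark the median of all genes passing the filter, -0.13, 0.00 and -0.81 over all sets. Hmgb2 lies left of -2 in every panel, and Sox11 lies right of 0 in types 1 and 2 and left of 0 in type 3.

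Between the types at P5, which the authors drew from these same counts, type 3 was at least 2-fold lower than the other types for all 7 members that passed the filter, and for Hmgb2, which did not pass (43.6% of passing genes). These calls are on the scale of mapped read pairs, where the median of all genes was -0.74. Sox12 was at -1.17, Hmgb3 at -1.46 and Sox4 at -1.73, and the others ran from -1.96 for Hmgn2 to -3.66 for Hmgn1. Inside set 393 the differences were -0.75 for Hmgb3 and -0.62 for Hmgb2, and both rest on 1 type 3 cell, without which Hmgb3 was at 35.1 RPM in type 3 (143 in the other types) and Hmgb2 at 0.0622 RPM (4.77 in the other types). When types 1 and 2 also lost their highest cell there, Hmgb3 was at 105 and 112 RPM and Hmgb2 at 0.519 and 2.36 RPM. Type 1 was higher for Hmgn1, Sox4 and Sox11 (22.4% of passing genes), and type 2 for Sox12 (25.4%). Hmgb2 was also higher in type 1 over all sets, at 16.3 against 4.11 RPM, but lower inside set 393, at 2.09 against 4.95 RPM. At the level of single cells, the median number of these genes above 10 RPM was 6 of 9 at E18 and in P5 types 1 and 2, and 4 in P5 type 3. At least 6 were above 10 RPM in 58 of 82 E18 cells (70.7%), 23 of 34 cells of P5 type 1 (67.6%), 15 of 19 of type 2 (78.9%) and 2 of 22 of type 3 (9.09%). Over all genes, the median number above 10 RPM per cell was 2495.5 at E18 and 2258, 2738 and 2101.5 in P5 types 1 to 3.

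At P2 the changes from E18 were not the same as at P5. Hmgb1 changed by -0.70 and -0.88 in P2 types 1 and 2, and Sox4 by -0.84 in type 2. P2 type 1 had 0 of the 9 genes at least 2-fold lower (29.6% of genes), type 2 had Hmgb2 and Hmga1 (16.8%), and type 3 had Hmgb2, Hmgn1, Hmgn2 and Hmga1 (51.1%), while Sox12 was higher in type 3 (13.3%). In P2 type 3 the median change of all genes was -1.06, beside -1.04 for Hmgb2, and the cells had a median of 2802950 counts on genes and a median mitochondrial share of 3.30%. Single cells of high content set several P2 type 3 levels, and without its highest cell this group went from 61.3 to 15.6 RPM for Hmgn1, from 144 to 56.8 RPM for Hmgb3, from 367 to 231 RPM for Hmgb1 and from 112 to 0.325 RPM for Sox12. The P2 type 1 level of Sox4 likewise went from 20.4 to 10.1 RPM. From P2 to P5, Hmgb2 and Hmga1 were lower in type 1 (13.1% of genes), Hmgb2 in type 2 (14.7%), and Hmgb1, Hmgb2, Hmgb3, Hmgn1, Sox11 and Sox12 in type 3 (24.8%). Higher at P5 were Sox4 in type 1 (26.1% of genes), Sox12 and Hmga1 in type 2 (24.4%) and Hmga1 in type 3 (35.6%). Hmga1 did not pass the filter in these comparisons, nor did Hmgb2 in type 3, and the type 3 levels of Hmgb2 and Sox12 at P2 rest on 1 cell each. The P2 type 3 levels without the highest cell were 56.8 RPM for Hmgb3 and 15.6 RPM for Hmgn1. In P5 type 3 these genes were at 69.6 and 10.6 RPM, or at 29.9 and 5.08 RPM without the highest cell. Sox11 in type 3 was at 2920 RPM over 13 cells at P2 and 603 RPM over 22 cells at P5, a log2 change of -2.27, and these ages share no library set.

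The 9 genes did not vary together from cell to cell at E18, where Spearman's rho of log2(RPM + 1) over 36 pairs ran from -0.14 to 0.28 across 82 cells, with a median of 0.08. The pair with the highest rho in each P5 type was Hmgn2 and Sox11, at 0.50 across 34 type 1 cells, 0.67 across 19 type 2 cells and 0.45 across 22 type 3 cells, against 0.06 at E18. By Pearson's r the pair was at 0.41, 0.58 and 0.20 and was highest in no P5 type. Higher by that measure were Sox11 and Sox12 in type 1 (0.44), Hmgn2 and Sox4 in type 2 (0.69) and Hmgb2 and Hmgb3 in type 3 (0.59). Cells of 1 type share their pool and library sets, and these values carry no test. In the 23 E18 cells with at least 3 cycle genes the pooled level of Sox12 was 10.2 RPM against 50.3 RPM in the others, with 3 of 23 and 24 of 59 cells above 10 RPM.

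Genes whose pooled level followed a member most closely over the 7 groups (Pearson's r of log2(RPM + 1) among 2273 genes that exceeded 10 RPM in 50% or more of a group's cells) are given as likeness of pattern only. For Sox11 they included Tpt1 (0.99) and Hnrnpc (0.98), both low in P5 type 3. For Hmgn2 they were Etv1 (0.97), Prrc2c (0.96) and Epc1 (0.96). Etv1, an ETS transcription factor, was at 48.6 RPM at E18 and at 306, 135 and 0.259 RPM in P5 types 1 to 3. For Sox4 they were Mtf2 (0.94), Kdm6b (0.92) and Zcchc14 (0.91), of which Mtf2, a Polycomb-associated gene, was at 67.1 RPM at E18 and 247, 97.5 and 47.3 RPM at P5. For Hmgb2 they were Rsrc2 (0.95), Slc25a36 (0.93) and Arcn1 (0.93), each highest at E18 and lowest in P5 type 3.

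The relatives of these genes did not follow 1 course. They are given beside all genes passing the filter, of which 17.8%, 15.7% and 45.5% were at least 2-fold lower and 10.2%, 16.2% and 11.3% higher at P5 in types 1 to 3, with medians of -0.13, 0.00 and -0.81. Of 12 other genes with an HMG box of the HMGB kind, 5, 6 and 4 passed the filter in types 1, 2 and 3, of which 1, 2 and 3 were at least 2-fold lower at P5 and 0 were higher, with medians of -0.49, -0.75 and -1.94. Among them Tox3 was at 61.5 RPM at E18 and 88.3, 10.4 and 6.34 RPM in P5 types 1 to 3, and Ssrp1, a subunit of the FACT histone chaperone, at 121 RPM and then 86.3, 84.4 and 67.5 RPM. Hmgn3 was the only other HMGN or HMGA gene to pass, and it was higher in types 1 and 3, at 22 RPM at E18 and 55, 22.1 and 55.3 RPM at P5 (log2 1.29, 0.01 and 1.29), whereas Hmgn1 was lower in type 3. Of 15 other Sox genes, 3, 5 and 3 passed, with 1 lower and 1 higher in each type and medians of 0.01, 0.56 and 0.45. Sox6, a marker of MGE INs, went from 70.5 RPM to 0.719, 12.4 and 0.00576 RPM, while Sox1, a progenitor gene, was at 14.6 RPM and then 99.1, 21.6 and 18.6 RPM. Sox9, an astrocyte and radial glia gene, was at 24 RPM and then 36.6, 149 and 63.2 RPM, with 1 of 22 type 3 cells above 10 RPM. It is itself in the astrocyte list, whose summed level in P5 type 2 had a median cell of 302 RPM and a highest cell of 19724 RPM.

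Other chromatin genes are set against the same shares and medians of all genes. Of 12 histone variants and linker histones, 8 passed in each type, of which 2, 3 and 7 were lower and 1, 0 and 0 higher (medians -0.27, -0.75 and -3.37). The linker histone genes Hist1h1c and H1f0 were lowest by the mean change over the types: Hist1h1c went from 44.9 RPM to 1.26, 0 and 0.0288 RPM, and H1f0 from 56.7 to 2.83, 7.98 and 3.63 RPM. H2afv and H2afy stood highest, H2afv at 30.1 RPM and then 94.9, 57.7 and 11.5 RPM. Of 20 chromatin proteins known from progenitors, 19, 20 and 19 passed, with 0, 3 and 13 lower and 3, 2 and 0 higher (medians -0.07, -0.14 and -1.16). Among them Rbbp7 was at 76.4 RPM and then 141, 15.3 and 0.288 RPM, and Anp32e, an H2A.Z chaperone, at 41.9 RPM and then 113, 155 and 27 RPM.

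On the scale of mapped read pairs, most genes of immature neurons were within 2-fold of E18 in types 1 and 2 and at least 2-fold lower in type 3. Of 24 such genes, 24, 23 and 22 passed. At least 2-fold lower were 3, 1 and 20 (17.8%, 15.7% and 45.5% of all genes), and 1, 1 and 0 were higher (10.2%, 16.2% and 11.3%). The medians were -0.28, 0.04 and -2.05 beside -0.13, 0.00 and -0.81 for all genes. Dividing by counts on genes brought the median of all genes in type 3 to -0.03. By the mean log2 change over the 3 types Nnat and Tmsb4x were lowest, Nnat at 231 RPM at E18 and 63.2, 98.1 and 35.4 RPM at P5. By the same mean Ccnd2 and Tubb2a were highest, Ccnd2 at 94.3 RPM and then 667, 417 and 70.4 RPM. Of 3 genes reported as SoxC targets, Tubb3, the neuronal tubulin, and Dcx, a microtubule protein of migrating neurons, passed, and Tead2 did not. Tubb3 was at 1471 RPM at E18 and 1209, 1518 and 274 RPM in P5 types 1 to 3, and Dcx at 1704 RPM and then 1414, 1343 and 418 RPM, so both were at least 2-fold lower in type 3 only, by -2.42 and -2.02 on the log2 scale.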

How the data were processed

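Poly(A) RNA of single FACS-sorted Htr3a-GFP+ cells was captured and amplified on C1 chips (SMARTer), made into Nextera XT libraries and sequenced as paired ends. Alignment by the authors used TopHat2 and GRCm38, and HTSeq 0.6.1 counted pairs on the exons of each Ensembl gene. The deposited table holds these raw counts for 43629 genes, and the labels give each cell a coefficient that turns counts into RPM (reads per 1000000 mapped). Symbols were given by the GENCODE M21 annotation for 42462 identifiers and not for 1167.

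Counts were summed over the cells of a group and divided by summed mapped pairs. Each age is 1 pool, so no test was made. A change is the log2 ratio of pooled RPM after adding 1 RPM to each level, called at 2-fold. The filter kept genes that exceeded 10 RPM in 25% or more of either group's cells. No label numbers or pairs animals. The members and lists were chosen with earlier results of these data known. Named were all 9 members, the 3 most similar genes for 4 of them, the 2 lowest and 2 highest passing genes of a list, and HMG or Sox genes; some genes that these rules name are not reported here. The rule for similarity is given with its values. Shares were also computed above 1 RPM, from 1 read pair, and after thinning to 1500000 counts. Alternatives were pseudocounts of 0.1 and 10 RPM, other scalings, filters and call limits, means or medians of cells, single library sets, and leaving out the highest cell, cells with 3 cycle genes or cells with markers of another type. Leaving out cells with MGE genes was added after seeing the data. Fold calculations were tested on simulated data. Promoter windows came from RefSeq (GRCm38.p6), and gene positions, exons and overlaps from GENCODE M21. Python 3.11.15 with numpy 2.4.6, pandas 2.3.3, scipy 1.17.1 and matplotlib 3.10.9 was used, with R 4.3.3, edgeR 4.0.16 and DESeq2 1.42.0 for size factors only.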

Additional observations from a re-analysis of the deposited data

Results flagged for a closer look

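Inside library set 393, Hmgn2 and Sox11 moved in opposite directions in types 1 and 3 between E18 and P5. Hmgn2 changed by 1.05 on the log2 scale in type 1 and by -1.60 in type 3, and Sox11 by 1.75 in type 1 and by -1.59 in type 3. The median of all genes passing the filter inside this set was -0.23 in type 1 and -1.05 in type 3. The type 1 change of Hmgn2 was -0.39 in set 392 and 0.75 in set 383. Each age is 1 pool of brains, so the difference between the types was not tested.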

How the results depend on the processing

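No paired analysis was possible because the labels name no animal and each age is 1 pool. Over the 12 called changes of single genes, 162 of 168 alternative values kept their sign and 142 stayed past 2-fold. The count of genes at least 2-fold lower in type 1 was 2, and 1 with a pseudocount of 10 RPM, with TMM, with DESeq2 size factors, with the mean of log2 per cell, with the median of cells, in set 383 alone, without cells with 3 cycle genes, without cells with 3 genes of another cell type, without cells with 3 MGE interneuron genes (added after seeing the data) and at a 4-fold call. In each of these the gene lost was Hmga1, whose change was 0 with the median of cells, 0.45 in set 383 and 0.26 without cells with 3 MGE genes. The count for type 2 was 2, and 1 at a 4-fold call. It was 3 in set 392 (3 P5 cells), where Hmgn1 at -0.85 was no longer called and Hmga1 (-3.15) and Sox12 were, and 3 in set 383 (2 P5 cells). With the types combined, the count inside set 393 was 2, and 1 with all library sets and 4 with the mean of log2 per cell. The count higher in type 2 than in the other P5 types was 1, and 4 in set 393. Called changes that turned sign were, besides Hmga1, Sox4 in type 1 (-0.15 in set 392), Sox12 in type 2 (-3.08 in set 392, with 3 P5 cells) and Hmgn2 in type 3 (0.29 in set 383, with 2 P5 cells), and their cause was not tested. Small groups, shares from 1 read pair and the shift of all genes in type 3 limit these values.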

Other observations

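Of 24 genes of neuronal maturation, 14, 16 and 14 passed the filter in types 1, 2 and 3. At P5, 5, 2 and 3 were at least 2-fold lower than at E18 (17.8%, 15.7% and 45.5% of all genes). Higher were 1, 5 and 1 (10.2%, 16.2% and 11.3%). The medians were -0.13, 0.28 and -0.10, beside -0.13, 0.00 and -0.81 for all genes and -0.28, 0.04 and -2.05 for immature neuron genes. Dividing by counts on genes, by TMM factors or by DESeq2 size factors brought the median of all genes in type 3 to -0.03, -0.24 and -0.16. Camk2b, a subunit of the calcium/calmodulin-dependent kinase, was at 15.7 RPM at E18 and at 65.5, 38.4 and 56.5 RPM in P5 types 1 to 3. Atp1b1, a subunit of the sodium pump, was at 45.3 RPM and then 79.8, 103 and 86 RPM. Syt4, a synaptotagmin, was at 212 RPM and then 38, 55.9 and 39.2 RPM, and Cplx1, a regulator of vesicle release, at 61.3 RPM and then 13.7, 192 and 5.49 RPM. Each age is 1 pool, so these are values without a test.

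Of 6 interneuron genes, all passed in each type, with 0, 1 and 1 at least 2-fold lower and 3, 2 and 1 higher, and medians of 0.63, 0.18 and -0.45, where 17.8%, 15.7% and 45.5% of all genes were lower and 10.2%, 16.2% and 11.3% higher. Dlx5 and Dlx6, homeobox genes of the ganglionic eminences, were at 52.1 and 5.32 RPM at E18 and at 272 and 33.4 RPM in P5 type 1, while in P5 type 3 they were at 29.4 and 18.9 RPM. Gad2, a GABA-synthesising enzyme, was at 365 RPM at E18, at 399 and 356 RPM in P5 types 1 and 2 and at 156 RPM in type 3.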
